A study of Mus musculus with 225 samples.

Results

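Ribosomal protein genes encode the proteins of the cytosolic ribosome, Rpl genes those of the large subunit and Rps genes those of the small subunit. They were chosen here by name alone, as every gene of the authors' normalized table whose symbol is Rpl or Rps with its usual number or letter ending. 82 of the 10948 genes in that table had such a name, 48 of the large subunit and 34 of the small. The values came from single cells of the mouse forelimb bud at embryonic day 12.5. The embryos were Hoxd11::GFP heterozygous, with a tau-GFP sequence knocked into Hoxd11 on a mixed C57Bl6CBAF1 background, and only GFP-sorted cells were captured, so all cells of both tissues carry the reporter allele. The autopod is the future hand and the zeugopod the future forearm. Each tissue was pooled over embryos before capture and no label names an embryo, so each tissue is 1 sample. No test between tissues was therefore possible, and the ranges over cells given here are not replicate error. In sequencing run NXT0072 the authors retained 59 of 69 captured autopod cells, in run NXT0142 58 of 60 captured zeugopod cells, and in run NXT0143 17 of 27 autopod and 65 of 69 zeugopod cells. The tissues thus share run NXT0143 alone. The main tissue comparisons are given over all retained cells, within NXT0143, and between NXT0072 and NXT0142, where run and tissue cannot be told apart. A value given by tissue over all retained cells alone is not separated from the run.

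Ribosomal proteins are assembled with ribosomal RNA in the nucleolus, and a growing cell needs them in balanced amounts. Their mRNAs are short, abundant and mostly begin with a cytosine followed by a run of pyrimidines, the 5′ terminal oligopyrimidine (TOP) tract, through which the growth regulator mTOR controls their translation as a group. The genes are also known for the many processed pseudogenes they have left in mammalian genomes, copies of the spliced mRNA inserted elsewhere. In limb and axial development they are known through mouse mutants such as that of Rpl38, whose protein is needed for the translation of a subset of Hox mRNAs.

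Sequences of a few members are shown first, because the number of near-identical copies of a gene went with how many reads it received. The authors kept reads of 75 bases that mapped to 1 place only. The first 75 coding bases of Rpl8 and Rps3, among the members with most reads, from the GENCODE vM21 transcripts of GRCm38, had no close copy in that annotation:
Rpl8: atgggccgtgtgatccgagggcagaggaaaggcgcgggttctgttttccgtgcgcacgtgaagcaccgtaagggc
Rps3: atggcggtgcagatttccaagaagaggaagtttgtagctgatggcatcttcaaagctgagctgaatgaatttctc

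Rpl4 and Rps20 had fewer reads than Rpl8 and Rps3, though they were still among the 10 highest members per length. Both had copies that differ at a few bases of this stretch. Each is shown with its closest copy, the processed pseudogenes Gm5835 and Gm6440, with the bases that differ in capitals:
Rpl4: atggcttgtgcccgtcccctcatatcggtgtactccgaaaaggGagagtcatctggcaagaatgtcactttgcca
Gm5835: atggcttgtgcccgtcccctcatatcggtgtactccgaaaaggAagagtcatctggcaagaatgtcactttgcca
Rps20: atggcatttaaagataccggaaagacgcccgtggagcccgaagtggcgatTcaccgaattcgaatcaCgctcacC
Gm6440: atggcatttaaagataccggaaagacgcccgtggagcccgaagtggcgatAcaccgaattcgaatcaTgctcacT
Counted from 1 at the A of the start codon, the change from Rpl4 to Gm5835 is G44A, and those from Rps20 to Gm6440 are T51A, C68T and C75T. In Rps6 and Rpl35, among the members with fewest reads, the same stretch was found with 0 differences in another gene, the processed pseudogene Rps6-ps1 for Rps6 and Gm2000, annotated as protein coding, for Rpl35. The same held for Rpl38 and the processed pseudogene Rpl38-ps2, although Rpl38 had at least 5 reads in 78.4% of cells:
Rps6: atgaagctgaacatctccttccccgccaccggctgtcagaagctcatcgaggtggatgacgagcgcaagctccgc
Rpl35: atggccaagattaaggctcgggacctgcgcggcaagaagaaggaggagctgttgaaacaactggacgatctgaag
Rpl38: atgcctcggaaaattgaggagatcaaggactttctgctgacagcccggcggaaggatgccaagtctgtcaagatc

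Ribosomal protein genes took a small share of the gene reads of every cell. Over the autopod cells the share on the 82 members ran from 0.199% through a median of 0.589% to 1.501%, and over the zeugopod cells from 0.00916% through 0.403% to 0.959%. Summed over cells, it was 0.618% of 243662054 autopod gene reads (95% exact binomial interval 0.617 to 0.619%) and 0.415% of 396770483 zeugopod gene reads (0.414 to 0.416%). These intervals take each read as independent, which reads without molecular identifiers are not, so they are too narrow even for counting error. They also leave out the spread over cells, whose standard deviation of the share was 0.288 percentage points in the autopod and 0.170 in the zeugopod. Cells of the tissues overlapped over most of the range. The depth per retained cell ran from 186271 to 9437447 gene reads, with a median of 3003660.

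The higher autopod median was that of 1 run. In NXT0072 the autopod cells had a median share of 0.660%, with 8 of 59 cells at 1% or more, and no retained cell outside that set reached 1%. In NXT0143 the median was 0.380% for the 17 autopod cells and 0.433% for the 65 zeugopod cells, so the order of the medians was the opposite there. The mean shares there were 0.466% and 0.435%, which kept the order over all cells. Summed over the NXT0143 cells, the shares were 0.433% and 0.444%. The NXT0142 zeugopod cells had a median of 0.377%. The difference of medians, autopod minus zeugopod, was 0.186 percentage points over all cells and -0.0530 within NXT0143. Whether the run, the chip or the cells go with the high NXT0072 values cannot be told apart.

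**Figure D1:**
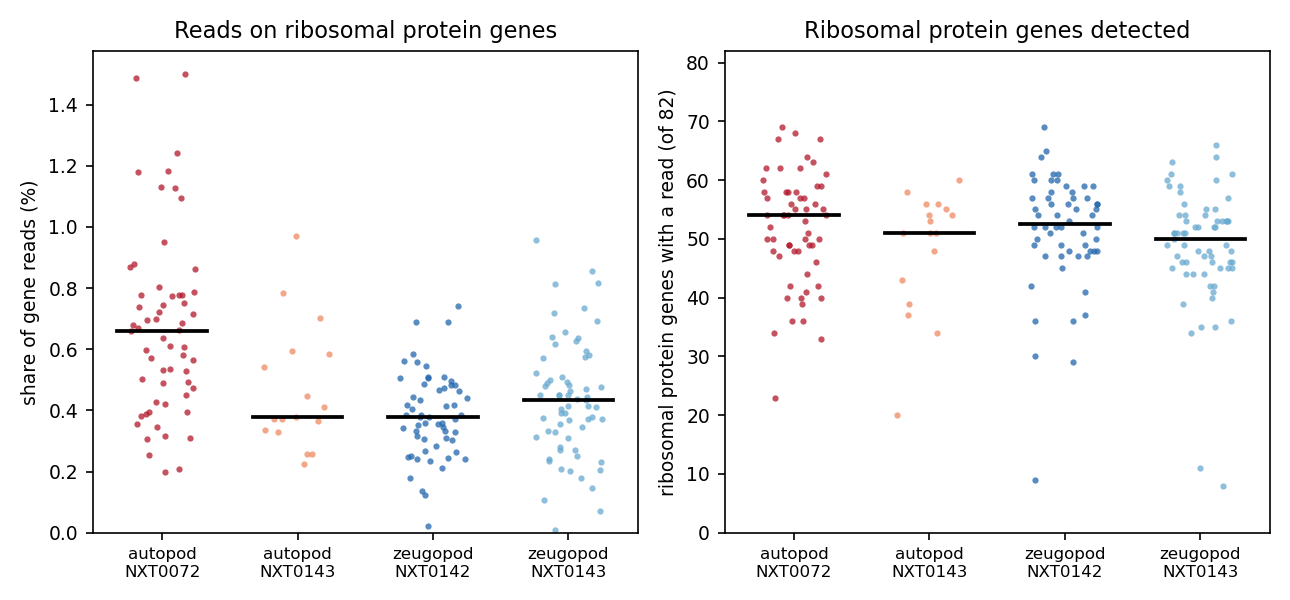
Each point is 1 retained cell, the bars are medians, and the columns are the tissues in each sequencing run. The left panel shows the share of gene reads (%) on the 82 ribosomal protein genes, with the NXT0072 autopod median at 0.660% and the other medians between 0.377 and 0.433%, and the right panel shows how many of the 82 had at least 1 read, with medians between 50 and 54.

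Although the share was small, most members were found in most cells. An autopod cell had a median of 53 of the 82 members with at least 1 read (20 to 69) and a zeugopod cell 51 (8 to 69), and with at least 5 reads the medians were 33 and 32. In the zeugopod, 3 cells stood apart, with 8, 9 and 11 members detected and shares of 0.00916, 0.0209 and 0.0699%. These 3 cells had 425695, 842730 and 454691 gene reads and size factors of 4.41, 4.18 and 3.40, against a zeugopod median of 1.13. The size factors were recovered here from the normalized values and the counts of the same cell. They did not follow the spike-in reads listed for that cell in the count table (Spearman -0.22 to 0.15 in the tissues by run), so the authors' spike-in scaling could not be retraced, and the main tissue differences below are also given on CPM (counts scaled to the gene reads of each cell), which does not use it. Within each tissue and run the number of members detected went up with gene reads (Spearman 0.23 to 0.62) and with the number of all genes detected (0.63 to 0.79), whereas the share had no common direction against gene reads (-0.44 to 0.30). These correlations describe 17 to 65 cells, each set from 1 pool.

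Reads were concentrated in a few members. Rpl8 (ENSMUSG00000003970, chr15:76904078-76906314, plus strand, GRCm38), a large subunit protein, took 26.1% of the members' autopod reads. In the zeugopod it took 24.8%. Rps3 (chr7:99477896-99483738, minus strand), a small subunit protein of the mRNA entry region that is also known for a role in DNA repair, was also among the 3 members with most reads in both tissues. The 10 leading members held 82.95% of the autopod and 81.3% of the zeugopod member reads, and 31 and 30 members held under 0.1% each.

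Mean levels ranged from 0.104 CPM in Rpl35 to 1222 CPM in Rpl8. CPM is the scale of a cell's gene reads set to 1000000 and is not corrected for length. On it, 2 members had a mean of 1000 or more over all retained cells, 5 lay between 100 and 1000, 36 between 10 and 100, 29 between 1 and 10, and 10 below 1. Per length, the values used are the authors' spike-in scaled reads per kilobase. The scaled reads are whole numbers to which 1 was added, so that a gene without reads sits at 1 over its length. A gene with few reads can also sit there in a cell with a large size factor. On that scale the median member had a mean of 22.5 and the median of all 10948 genes was 35.7. The 10 highest members per length included Rpl8 at 5777, Rps3 at 658, Rpl4 at 402, Rpl41 at 313, Rps9 at 261, Rps20 at 205, Rpl14 at 150.2 and Rpl23 at 136. The 5 lowest included Rps6 at 3.24, Rpl35 at 3.20, Rpl17 at 2.08 and Rpl35a at 1.99. Rps6, the target of S6 kinase downstream of mTOR, had at least 1 read in 20.6% of cells and at least 5 in 4.02%. Rpl8, in contrast, had at least 1 read in 99.5%.

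Members were found in more cells than most genes, as the plot of detection against level shows. The median member had at least 1 read in 59.5% of cells, and the median gene of the table in 27.6%. Rpl32, a large subunit protein, had at least 1 read in 96.5% of cells at a mean of only 2.39 CPM. Its exons overlap those of the protein-coding gene Cand2 on the other strand, and the kit does not mark strand, so reads of the overlap cannot be told apart. Exons of 15 of the 82 members overlap those of another protein-coding gene. Rplp1, of the acidic stalk, was found in 85.4% at 1.39 CPM and Rpl37 in 92.96% at 3.71 CPM. Rpl21, with a higher mean of 21.7 CPM, was found in 21.1%. 54 members passed the filter on low counts, at least 5 reads in 25% or more of the cells of either tissue, as did 4898 genes in all. The 28 others include Rpl11, Rpl24, Rpsa, Rps6, Rps7 and Rps12.

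**Figure D2:**
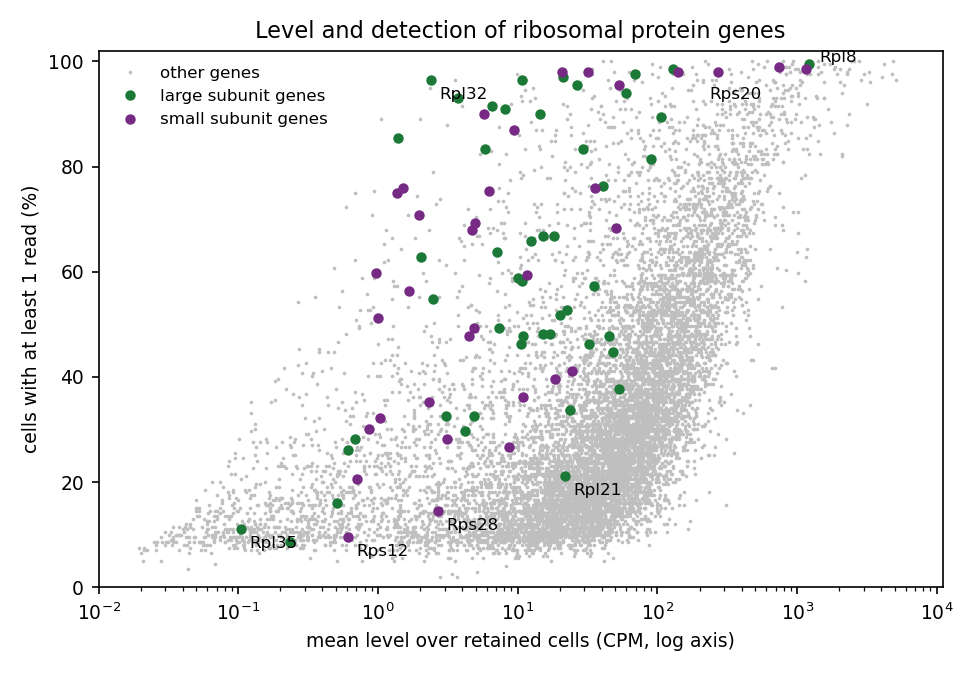
Mean level over the retained cells (CPM, log axis) against the percentage of cells with at least 1 read, with grey points for other genes of the normalized table and coloured points for large and small subunit genes. Among the members, Rpl8 lies furthest to the right, above 1000 CPM, and Rpl32 lies near 2.39 CPM at 96.5% of cells. Some other genes lie to the right of Rpl8.

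The levels went with the number of near-identical copies, though not in every member. For the 80 members with an annotated coding sequence, copies were counted as other genes of GENCODE vM21, pseudogenes included, with at least 75 aligned bases of at least 90% identity. 79 of the 80 had at least 1 copy, the median was 10, and Rpl7a had the most with 97. Rpl8, Rpl4 and Rps9 had 1 copy each and Rps3 had 2. The 13 members with 1 to 4 copies had mean levels from 1.951 to 1222 CPM with a median of 69.2, the 22 with 5 to 9 copies from 0.104 to 272 CPM with a median of 5.33, and the 44 with 10 or more from 0.233 to 53.4 CPM with a median of 8.33. Over the 80 members Spearman's correlation of the copy number was -0.64 with the median CPM over cells and -0.37 with the mean CPM. For the percentage of the coding sequence covered by copies these were -0.36 and -0.23, and for the percentage of its 75-base windows found elsewhere with 0 differences -0.65 and -0.33. All 3 measures were chosen after the levels were known, and members of a family share sequence, so no p-value is given.

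Single members departed from this order. Rps10, a small subunit protein, had 3 copies and a mean of 1.951 CPM, while Rpl9 had 18 copies and 53.4 CPM. Rps20 had 5 copies and 84.1% of its windows found elsewhere, with a mean of 272 CPM. No window of Rps3 or Rpl41 was found elsewhere, and their means were 735 and 89.3 CPM. Every window was found elsewhere in 23 members, whose means ran from 0.233 CPM (Rpl17) to 47.7 CPM (Rpl10). The windows lie in the coding part, and introns and unannotated copies were not searched. The part of the copies in the levels was not tested. Rps4l and Rps3a3, which carry the names of small subunit genes, are annotated as pseudogenes and had means of 10.9 and 0.997 CPM.

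**Figure D3:**
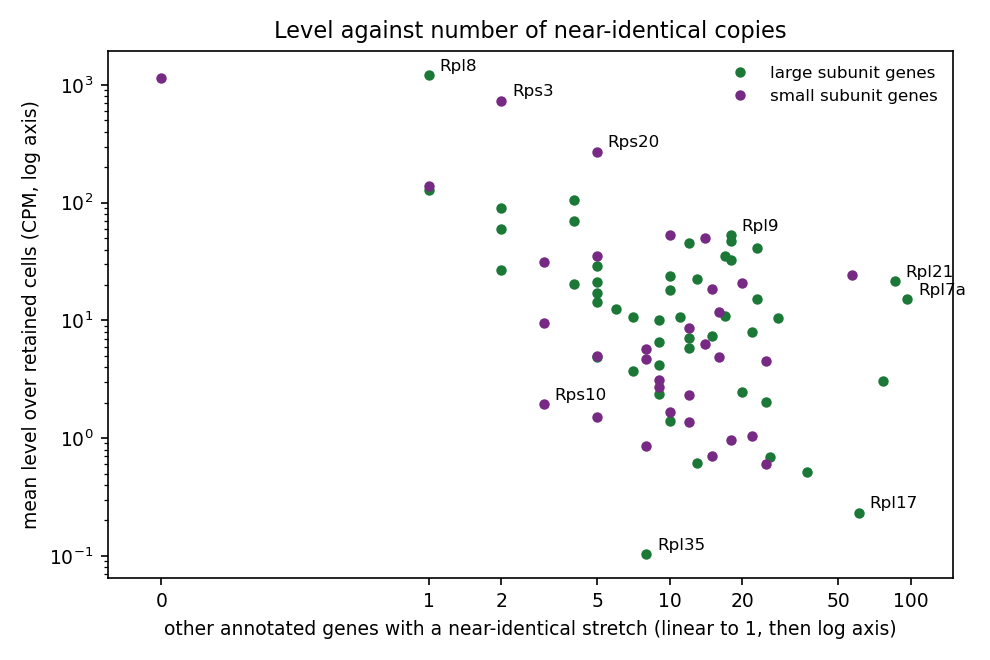
Number of other annotated genes that hold a near-identical stretch of at least 75 bases (linear to 1, then log axis) against the mean level over the retained cells (CPM, log axis), 1 point for each of 80 members. Rpl8 with 1 copy lies at the top, and the 44 members with 10 or more copies lie at or below 53.4 CPM.

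The subunits shared the reads in unlike proportions from cell to cell. The large subunit held a median of 44.1% of the members' reads in an autopod cell (7.75 to 88.7%) and 47.7% in a zeugopod cell (10.3 to 95.3%). Within NXT0143 the medians were 54.01% and 52.3%.

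Of the leading genes, Rpl8 had its highest median in the NXT0072 autopod cells and Rps3 did not. Rpl8 had lowest, median and highest values of 2.80, 1273 and 7567 CPM there, of 6.34, 935 and 3614 CPM in NXT0143 autopod cells, of 0, 766 and 2454 CPM in NXT0142 zeugopod cells, and of 4.399, 864 and 3497 CPM in NXT0143 zeugopod cells. The NXT0072 autopod cells reached higher than those of any other set, and the ranges overlapped below that. Rps3 had medians of 574, 651, 625 and 526 CPM in the same order.

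The comparison of autopod with zeugopod cells asks whether the segments of the limb differ in these genes. The difference was taken as the mean of log2(normalized value + 1) over autopod cells minus that over zeugopod cells, a scale that understates the change of low genes. Over the 54 members past the filter its median was 0.28 over all cells, against -0.12 over all 4898 genes tested. Within NXT0143 the medians were 0.27 for members and 0.18 for all genes, and between NXT0072 and NXT0142 0.20 and -0.34. On log2(CPM + 1) the members' medians were 0.15, -0.10 and 0.27, against -0.29, -0.02 and -0.41 for all genes, so the sign of the members' median within NXT0143 turned with the scaling. 30 of the 54 members had the same direction within NXT0143 and between the other runs on the normalized scale, 25 higher and 5 lower in the autopod. This was 55.6% of members against 51.4% of all 4898 genes, and on log2(CPM + 1) it was 33.3% of members against 55.1% of all genes. The members' percentage lay near that of all genes on the normalized scale and below it on CPM, and nothing is read from it.

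5 members lay at 1 or above, a doubling, over all cells and 0 at -1 or below, where 6.06% of all tested genes lay at 1 or above and 13.4% at -1 or below. Among them were Rps20 at 1.60, Rps14 at 1.54, Rps27l at 1.44 and Rpl22l1 at 1.38. Within NXT0143 4 other members lay at 1 or above (18.4% of all genes) and 0 at -1 or below (9.21%). These were Rpl13a at 1.57, Rpl3 at 1.37, Rplp2 at 1.05 and Rps26 at 1.04. Between NXT0072 and NXT0142 7 members lay at 1 or above (6.64%) and 2 at -1 or below (24.3%), the lower ones being Rplp2 at -1.60 and Rpl4 at -1.26. On log2(CPM + 1) 4 members lay at 1 or above over all cells (5.41%) and 0 at -1 or below (19.8%), 2 and 0 within NXT0143 (15.9% and 14.7%), and 7 and 2 between the other runs (7.59% and 28.6%).

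Rps20, a small subunit protein, had the largest difference over all cells (ENSMUSG00000028234, chr4:3831334-3835665, minus strand). Its lowest, median and highest values were 0.574, 492 and 2448 CPM in NXT0072 autopod cells and 0, 99.2 and 178 CPM in NXT0143 autopod cells. They were 0.504, 120.6 and 1125 CPM in NXT0142 zeugopod cells and 0, 100.6 and 802 CPM in NXT0143 zeugopod cells. The NXT0072 median thus lay far above the other 3, which lay close together, while the ranges overlapped. The tissue difference was 1.71 between NXT0072 and NXT0142 and 0.09 within NXT0143, where it was -0.46 on log2(CPM + 1). Within the autopod, NXT0072 cells exceeded NXT0143 cells by 2.45.

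**Figure D4:**
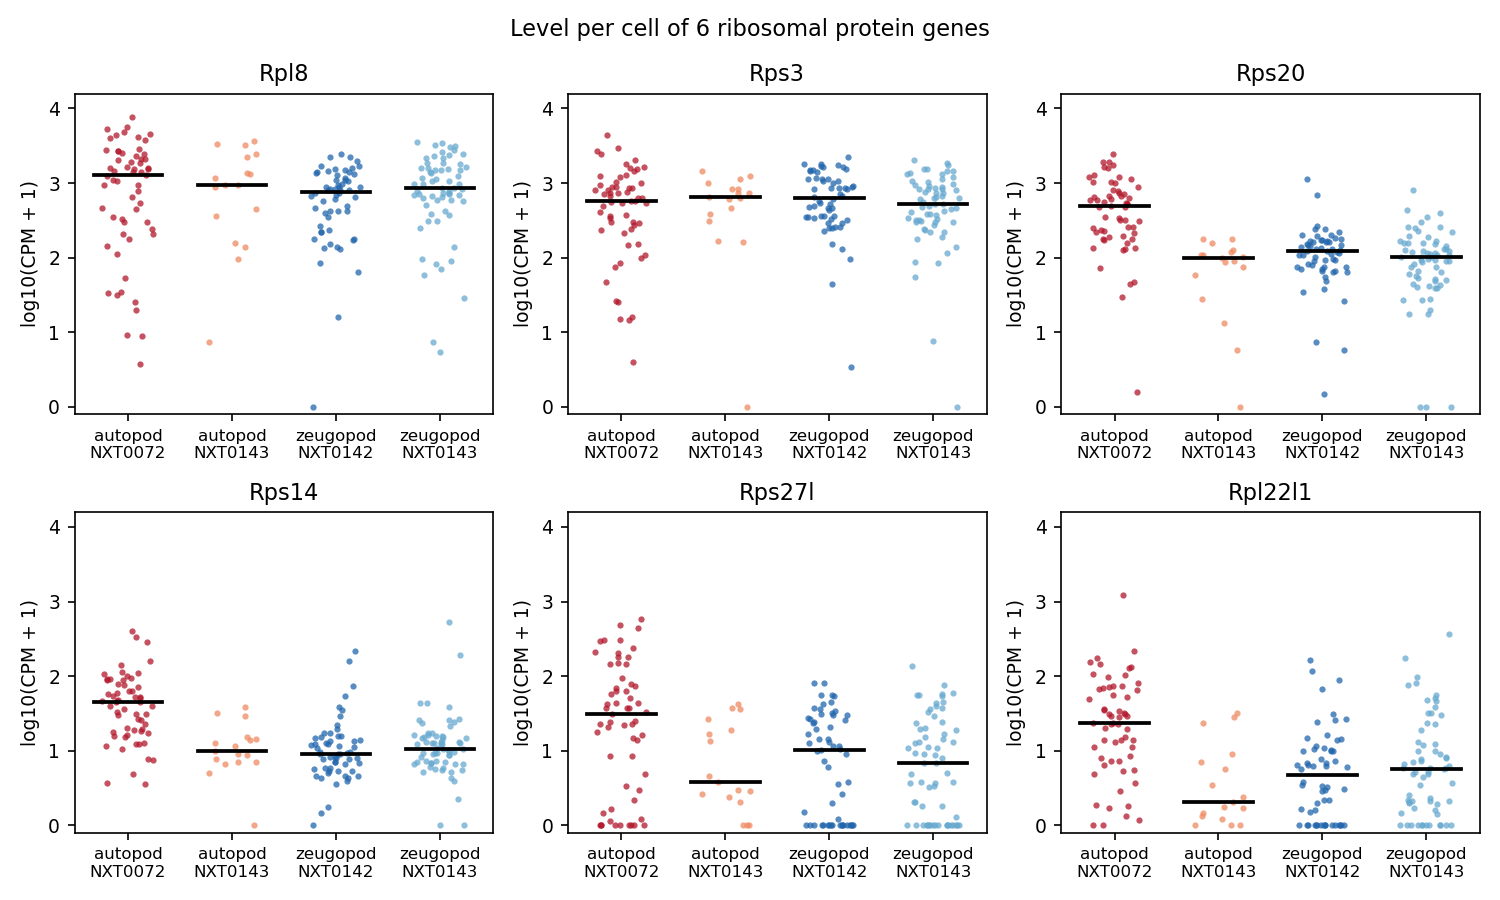
Level per cell, as log10(CPM + 1), of Rpl8, Rps3, Rps20, Rps14, Rps27l and Rpl22l1 in the tissues by sequencing run, with points for cells and bars for medians. For Rps20, Rps14, Rps27l and Rpl22l1 the NXT0072 autopod median is the highest, at 492, 43.4, 30.1 and 22.7 CPM.

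Rps14, a small subunit protein whose loss is known from the 5q- syndrome, also had its highest median in the NXT0072 autopod cells. Its medians were 43.4 CPM in NXT0072 autopod cells (2.53 to 396), 8.76 in NXT0143 autopod cells (0 to 37.01), 8.08 in NXT0142 zeugopod cells (0 to 219) and 9.53 in NXT0143 zeugopod cells (0 to 522). Rps27l, a p53-induced paralog of Rps27 (chr9:66946086-66949516, plus strand), had medians of 30.1, 2.84, 9.29 and 5.80 CPM. Rpl22l1, the paralog of Rpl22 (chr3:28805436-28807424, plus strand), had medians of 22.7, 1.07, 3.78 and 4.600 CPM. The NXT0143 autopod cells lay below the zeugopod cells in the medians of Rps27l and Rpl22l1. Within NXT0143 the tissue difference was 0.39 for Rps14 and 0.21 for Rps27l on the normalized scale but -0.13 and -0.09 on log2(CPM + 1), and for Rpl22l1 it was -0.53 and -0.86. An exon of Rpl22l1 overlaps that of the antisense gene Gm33051, and with a kit that does not mark strand their reads cannot be told apart.

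On the normalized scale, the 5 largest autopod excesses with 1 direction in both run comparisons included those of Rps20, Rps14 and Rps27l. On log2(CPM + 1) Rps20, Rps14 and Rps27l had the opposite sign within NXT0143, as given above. Rps24, a Diamond-Blackfan anaemia gene, was also among the 5, at 0.94 over all cells, 0.28 within NXT0143 and 1.15 between the other runs. Rpl13a, whose protein is also known to silence inflammatory mRNAs, had 0.91, 1.57 and 0.43, and 1 cell made 44.99% of its summed CPM in NXT0143 autopod cells. Exons of Rpl13a overlap those of Gm45713.

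The 5 members lower in the autopod in both run comparisons were Rps4l at -0.72 over all cells, Rpl35a at -0.43, Rpl38 at -0.41, Rpl31 at -0.18 and Rpl29 at -0.12. Their differences within NXT0143 were -0.21, -0.16, -0.23, -0.51 and -0.15. None of them reached -1, and all 5 were also lower in both run comparisons on log2(CPM + 1). Rpl31 and Rpl29 had at least 5 reads in only 22.1% and 24.6% of all retained cells. Each thus passed the filter through a single tissue, so its direction is no support for a difference. Exons of Rpl31 also overlap those of the protein-coding gene Tbc1d8 on the other strand.

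**Figure D5:**
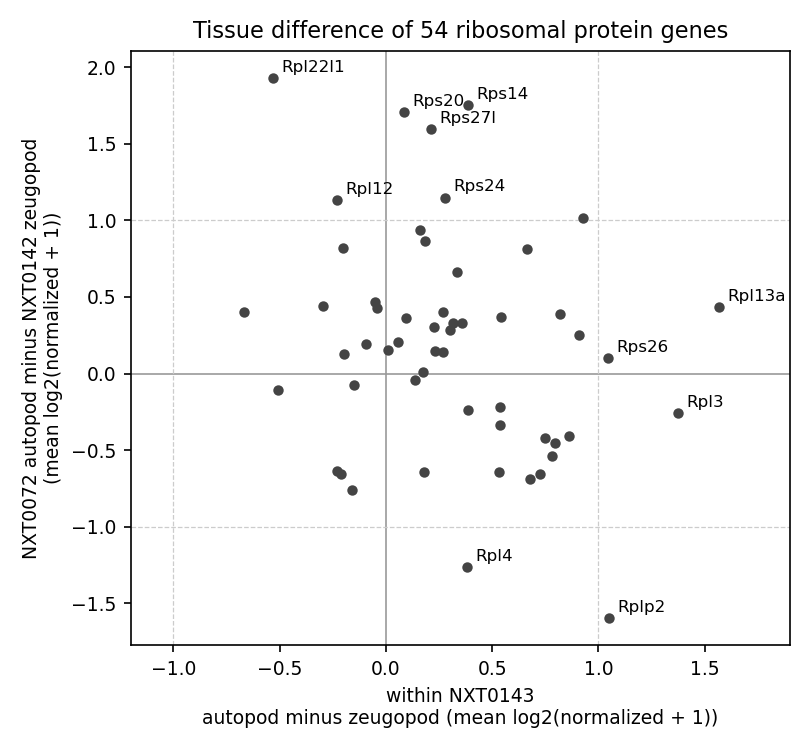
Autopod minus zeugopod difference of mean log2(normalized value + 1) for the 54 members past the filter, within run NXT0143 (x axis) against NXT0072 autopod minus NXT0142 zeugopod (y axis), with dashed lines at 1 and -1. Rps20, Rps14 and Rps27l lie at 1.71, 1.76 and 1.60 on the y axis and at 0.09, 0.39 and 0.21 on the x axis (-0.46, -0.13 and -0.09 on the CPM scale), Rpl22l1 at 1.93 and -0.53, and Rplp2 at -1.60 and 1.05.

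Rplp2 and Rpl4 turned with the run. Rplp2, with Rplp1 part of the acidic stalk that recruits elongation factors, had medians of 19.9 CPM in NXT0072 autopod cells, 43.6 in NXT0143 autopod cells, 39.9 in NXT0142 zeugopod cells and 37.2 in NXT0143 zeugopod cells. 9 of 59 NXT0072 autopod cells had 0 reads of it. Rpl4, a large subunit protein, had medians of 79.8, 151 and then 115.4 and 121.7 CPM. NXT0072 minus NXT0143 autopod cells was -1.85 for Rplp2 and -0.95 for Rpl4. Rplp0, the base of the stalk, had medians of 4.30, 3.21, 2.82 and 2.51 CPM.

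Runs of the same tissue also differed. For autopod NXT0072 minus autopod NXT0143, 8 of the 54 members lay at 1 or above (11.8% of all genes) and 4 at -1 or below (22.2%). For zeugopod NXT0142 minus zeugopod NXT0143, 5 lay at 1 or above (15.1%) and 0 at -1 or below (1.1%). These comparisons share cells with the tissue comparisons.

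Members known from development or disease ranged from rarely to widely read. Every 75-base coding window of Rpl5, Rpl11, Rpl24, Rpl27a, Rps27a and Rpl38 was found in another gene with 0 differences. The percentage was 94.5% for Rps7, 90.5% for Rpsa, 49.6% for Rps19 and 7.38% for Rpl7l1. Only reads that mapped to 1 place were kept, so low detection here does not show low expression. The part of the copies in it was not tested. Rpl38 (chr11:114668524-114672331, plus strand) had at least 5 reads in 78.4% of cells, with medians of 4.31 CPM in NXT0072 autopod, 3.62 in NXT0143 autopod, 7.49 in NXT0142 zeugopod and 7.76 in NXT0143 zeugopod cells. Its highest NXT0143 autopod cell had 955 CPM and made 91.2% of that set's sum, and no cell of the other sets exceeded 52.3 CPM. Rps19, the gene most often mutated in Diamond-Blackfan anaemia, had at least 5 reads in 96.5% of cells and a mean of 20.7 CPM. Rpl5 and Rpl11, which bind Mdm2 and stabilise p53 when ribosome assembly fails, had at least 5 reads in 26.1% and 14.6%. Rpl11 had a median of 0 in every set and reached 1680 CPM in 1 NXT0072 autopod cell. Rpl24, mutated in the Belly spot and tail mouse, had at least 5 reads in 14.1%, Rpsa, also known as the laminin receptor, in 12.6%, Rps7 in 11.6%, Rps27a, made as a fusion with ubiquitin, in 45.7%, Rpl27a in 34.7% and the paralog Rpl7l1 in 40.7%.

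Variation between cells was large. Over the 54 members the median coefficient of variation (CV) of CPM was 2.48 over autopod cells and 2.32 over zeugopod cells, against 3.14 and 2.63 over all genes past the filter. The 7 members with at least 100 CPM in the zeugopod had a median CV of 0.805, against 2.24 for the genes of that level. The 5 smallest CVs over all cells included those of Rpl4 (0.74), Rps3 (0.84), Rpl8 (0.98) and Rpl32 (1.06), the last a member with a mean of only 2.39 CPM. The largest among members past the filter were those of Rpl6 (5.23), Rpl5 (4.90), Rpl27 (4.88), Rps15 (4.85) and Rpl34 (4.76). Of the summed Rpl6 CPM in NXT0072 autopod cells, 64.2% came from 1 cell. The CVs count cells without reads.

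The median Spearman correlation over the 1431 pairs of members was 0.08 over autopod cells and 0.09 over zeugopod cells, against 0.06 and 0.03 over pairs of all genes past the filter, all on CPM. On normalized values, in which all genes of a cell share its size factor, the members' medians were 0.25 and 0.20. Values as weak as those on CPM are no finding in sparse counts, since the points share library and depth. 10 members had at least 5 reads in 90% or more of the cells of both tissues, among them Rpl4, Rpl8, Rpl23, Rps3, Rps9, Rps14, Rps19 and Rps20. Among their 45 pairs the medians were 0.11 in NXT0072 autopod, 0.17 in NXT0143 autopod, 0.11 in NXT0142 zeugopod and 0.20 in NXT0143 zeugopod cells. Rps14 and Rpl4 were at -0.45 in NXT0072 autopod cells, the lowest pair there. The same pair was at -0.005 in NXT0143 autopod, 0.26 in NXT0142 zeugopod and 0.30 in NXT0143 zeugopod cells. The 10 were picked after their detection was seen.

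Start sites were compared because the TOP tract is what these mRNAs are known to share. RefSeq start sites of GRCm38.p6 were given for 60 of the 82 members. The tract was searched as C followed by at least 5 bases each C or T, on the transcribed strand alone, in a window from 10 bases before the annotated start to 20 bases from it. 58.3% of the 60 members had it, against 24.9% of all 27025 genes in the table and 26.2% of those in the normalized table. Members with the tract had mean levels from 0.104 to 139 CPM with a median of 14.4, and members without it from 0.970 to 735 CPM with a median of 7.37. The windows of 5 members with the tract, in capitals, and of 1 without it are shown, since high and low members are among both:
Rps9, chr7:3704031-3704060, plus strand: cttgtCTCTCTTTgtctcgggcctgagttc
Rpl14, chr9:120571507-120571536, plus strand: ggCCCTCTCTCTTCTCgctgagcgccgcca
Rpl38, chr11:114668570-114668599, plus strand: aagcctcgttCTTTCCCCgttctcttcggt
Rps6, chr4:86857348-86857377, minus strand: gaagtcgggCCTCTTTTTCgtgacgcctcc
Rpl35, chr2:39005112-39005141, minus strand: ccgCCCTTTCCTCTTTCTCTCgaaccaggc
Rps3, chr7:99483690-99483719, minus strand: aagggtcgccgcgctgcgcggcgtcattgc
The annotated start can lie some bases from the one used in these cells, and a window without the tract says only that these letters are not in it.

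Genes that work with the ribosome were measured beside the members. Of 17 translation factors and other TOP genes 15 passed the filter. Gnb2l1, the small subunit scaffold protein also called Rack1, had medians of 2038 CPM in NXT0072 autopod, 985 in NXT0143 autopod, 1205 in NXT0142 zeugopod and 1248 in NXT0143 zeugopod cells. Over all cells 3 of the 15 lay at 1 or above (6.06% of all genes), among them Eif3f at 1.91 and Pabpc1 at 1.63. At -1 or below lay 2 (13.4%), Eef2 at -1.93 and Eif3h at -1.02. Within NXT0143 2 lay at 1 or above (18.4%) and 0 at -1 or below (9.21%), and between NXT0072 and NXT0142 3 (6.64%) and 3 (24.3%). Eif3f was at -0.86 within NXT0143, Eef2 at 0.89 and Eif3h at 1.07, each of the sign opposite to that over all cells. Pabpc1 was at 1.40 there. Eef2 is the factor that moves the ribosome along the mRNA, and Pabpc1 binds the poly(A) tail.

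Mitochondrial ribosomal protein genes, which are nuclear genes for the separate ribosome of mitochondria, had their highest median share in the same set as the cytosolic ones. It was 0.711% in NXT0072 autopod, 0.397% in NXT0143 autopod, 0.497% in NXT0142 zeugopod and 0.480% in NXT0143 zeugopod cells. Of 77 such genes 61 passed the filter. Over all cells 2 lay at 1 or above (6.06% of all genes) and 3 at -1 or below (13.4%), with a median of -0.12, which was also that of all genes. Within NXT0143 10 lay at 1 or above (18.4%) and 10 at -1 or below (9.21%), and between NXT0072 and NXT0142 1 (6.64%) and 8 (24.3%). Ribosome biogenesis genes process ribosomal RNA and assemble subunits. Their lowest median share was in NXT0072 autopod cells, 0.179% against 0.254 to 0.308% in the other sets. Of these 29 genes 17 passed, with Nop10 at 1.02 and Rrn3 at -2.52, Rrp1 at -1.49 and Nop56 at -1.34 over all cells. Within NXT0143 all 4 had the opposite sign on this scale, at -0.22, 0.37, 1.16 and 0.80, while on log2(CPM + 1) Rrn3 was at -0.04 there and kept its sign. Of 12 growth control genes 4 passed, and over all cells only Mycn lay beyond 1, at 1.65, with 2.21 within NXT0143 and at least 5 reads in 10.6% of all retained cells. At that share it passed the filter through the autopod, where it is high, so its autopod excess is no support for a difference.

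Marker genes were used to check the cells. At least 2 of Prrx1, Twist1, Pdgfra and Tbx5, markers of limb mesenchyme, had 5 reads in 65.8% of autopod and 87.8% of zeugopod cells. Chondrogenic markers (3 of Sox9, Col2a1, Acan, Col9a1 and Matn1) were found in 46.1% and 30.9%, and tendon markers (2 of Scx, Tnmd and Tnc) in 0% and 13.8%. Cell cycle markers (3 of Mki67, Top2a, Ccnb1 and Cdk1) were found in 23.7% and 18.7%. By run, cell cycle markers were in 27.1% of NXT0072 and 11.8% of NXT0143 autopod cells. They were in 24.1% of NXT0142 and 13.8% of NXT0143 zeugopod cells, so the tissue order was the opposite within NXT0143. In the zeugopod, tendon markers were in 18.97% of NXT0142 and 9.23% of NXT0143 cells. Mesenchyme and chondrogenic markers kept their tissue order within NXT0143, at 58.8% against 81.5% and 47.1% against 29.2%. No cell met the limits for muscle, epithelium, endothelium or macrophages. A single blood marker was in the table, so the blood limit could not be met. The median member share of cells with and without chondrogenic markers was 0.662% and 0.648% in NXT0072 autopod, 0.376% and 0.448% in NXT0143 autopod, 0.346% and 0.403% in NXT0142 zeugopod, and 0.414% and 0.440% in NXT0143 zeugopod cells. For cell cycle markers it was 0.727% and 0.636% in NXT0072 autopod, 0.579% (2 cells) and 0.380% in NXT0143 autopod, 0.365% and 0.381% in NXT0142 zeugopod, and 0.370% and 0.447% in NXT0143 zeugopod cells. For tendon markers it was 0.352% and 0.384% in NXT0142 zeugopod and 0.655% (6 cells) and 0.416% in NXT0143 zeugopod cells. The part of these cell kinds in the tissue differences of single genes was not tested.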

How the data were processed

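The authors sorted GFP-positive forelimb cells, made cDNA on Fluidigm C1 chips and mapped 75-base reads to mm10 with Bowtie2, keeping those that mapped to 1 place. They deposited raw read counts of genes and 92 spike-ins for the captured cells, without molecular identifiers. They also deposited a signal for the retained cells: counts divided by spike-in size factors, as whole numbers, with 1 added, per kilobase of gene length. The size factors, recovered from these values, did not follow the deposited spike-in reads. From the counts, shares of gene reads, CPM, CVs and Spearman correlations were computed, and from the signal differences of mean log2(value + 1), with python 3.11.15, numpy 2.4.6, pandas 2.3.3 and scipy 1.17.1. The cells were those the authors retained, and doublets were not called here. The code was checked on simulated data. Differences are given for genes with 5 reads in 25% of the cells of either tissue, and counts use a limit of 1 on the log2 scale. With 1 pool a tissue, no p-value was computed.

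Members were named where they were among the 10 highest or 5 lowest levels, the 5 largest differences each way that kept their direction in both run comparisons, the 5 smallest or largest CVs, paralogs by name, or genes of known role. Others were named after their values were seen: Rpl3, Rpl9, Rpl10, Rpl13a, Rpl21, Rpl37, Rpl7a, Rps10, Rps12, Rps26 and Rps3a3. The members and lists were chosen with earlier results of these data known. Some members and related genes enter the counts and summaries but are not reported by name here. Copies were searched with blastn 2.17.0 among GENCODE vM21 transcripts in place of the planned search of a genome, which was not used here.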

Additional observations from a re-analysis of the deposited data

Results flagged for a closer look

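Reads lay on rows with ribosomal protein names outside the 82 members. Rows named as ribosomal protein pseudogenes held 17583 reads in the retained cells, on 194 of 214 such rows, a pooled share of 0.00306% of autopod and 0.00255% of zeugopod gene reads. Rpl14-ps1 had the most, 7303 reads in 188 cells, followed by Rps2-ps9 with 1680 reads in 38 cells and Rps19-ps6 with 1464 reads in 189 cells. The 6 rows of the count table that fit the naming rule but are not in the normalized table held 44 reads, 28 of them on Rpl10l, of which 26 were in 1 cell, and Rps12l1 had 0. The 26 captured cells that were not retained held 31805 member reads, with a median member share of 0.202% and a median of 25640 gene reads. These values were marked because they lie outside the cells and rows of the comparisons.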

How the results depend on the processing

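No paired analysis was possible because the results come from no test and the replicate numbers only name cells in accession order. Of the values recomputed under another choice, 92 stayed close to the reported one, 22 moved, 8 single genes fell below 1 and 2 reversed. The reversals were both within NXT0143, the difference of median shares at -0.0530 against 0.186 and Rpl22l1 at -0.53 against 1.38. The mean shares within NXT0143, 0.466% in the autopod and 0.435% in the zeugopod, did not reverse. The CPM scale within NXT0143 was not among these choices. There the members' median difference was -0.10, against the reported 0.28, and Rps20, Rps14 and Rps27l also changed sign. The median share was 0.422% in the autopod and 0.309% in the zeugopod without the member with most reads, 0.827% and 0.561% with other ribosome genes added, and 0.380% in the autopod within NXT0143. Members at 1 or above numbered 3 with a pseudocount of 10 against 5. Members at -1 or below numbered 2 between NXT0072 and NXT0142 and 1 on CPM thinned to 500000 reads, against 0. With at least 5 reads, 33 autopod and 32 zeugopod members were detected per cell, and 37 and 35 after thinning, against 53 and 51. The large subunit share was 58.1% and 62.6% on sums of normalized values and 54.01% in NXT0143 autopod cells. The median CV of the autopod was 1.81 in NXT0143 alone. The median correlation between members was 0.252 and 0.197 on normalized values, 0.0563 and 0.0459 after thinning, 0.0866 in NXT0143 autopod cells, and 0.0554 in the zeugopod without the 3 cells with few members detected. Leaving out those cells, the copy measures and the choice of 10 widely found members were added after seeing the data. Depth limits the low members, and a gene without reads in a cell may still be expressed there.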

Other observations

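Of the genes outside the family, those whose CPM went most with the members' share of reads were ranked by their smallest Spearman correlation over the tissues in each run. The 10 leading were Ifitm2, Uqcrh, Ndufa6, Ccnj, RP24-257C17.2, Sec61b, Fam221b, Srpr, Eef1b2 and Gabpb2, with smallest correlations from 0.17 to 0.23. Uqcrh and Ndufa6 belong to respiratory complexes, Sec61b and Srpr act in protein entry to the endoplasmic reticulum, and Eef1b2 is an elongation factor subunit. The 5 most opposed were Lrrc17, Robo2, Klhl24, Ddah1 and Zdhhc17, with correlations nearest 0 from -0.16 to -0.12. All are weak extremes of many genes over 17 to 65 cells of 1 pool each, and among the members themselves Rpl8 reached 0.22 by the same measure, with its own reads part of the share.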
